A study of Mus musculus with 49 samples.

Results

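The 9 genes Pf4, Ppbp, Vwf, Itga2b, Gp1ba, Gp5, Gp9, Selp and Sdpr are genes for which megakaryocytes and platelets are known. They were taken from the deposited table by the Ensembl gene IDs that carry these symbols (Sdpr is called Cavin2 in newer annotation), and all 9 were found among its 38253 genes. RNA sequencing had been done on sorted mouse bone marrow cells and on leukaemias started in such cells, to ask how the cell of origin shapes a leukaemia. Normal samples numbered 30. They were 5 of LT-HSC and 5 of ST-HSC, the stem cells with long-term and short-term repopulating ability, 6 of multipotent progenitors (MPP), 5 of common myeloid progenitors (CMP), 5 of progenitors of granulocytes and macrophages (GMP) and 4 of progenitors of megakaryocytes and erythrocytes (MEP). Leukaemias numbered 19, all driven by the fusion MLL-AF9 (MA9), and each name gives the cell that had been transduced: 3 were STHSC:MA9, 6 were MPP:MA9, 4 were CMP:MA9 and 6 were GMP:MA9.

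Every sample was labelled as C57BL/6J, genotype WT, at an age of 6 to 12 weeks, and the study's methods give the mice as female. For the leukaemias, a retrovirus carrying MA9 and GFP was put into sorted cells, which were transplanted into sublethally irradiated mice, and GFP+ cells were later sorted in bulk, without a gate for a cell stage. The methods name the spleen as their source, whereas the labels give bone marrow for every sample. Leukaemia cells were taken after the disease had developed in the transplanted mice, so their labelled age need not be that at harvest. Stem cells were sorted as CD150+, with CD34 separating LT-HSC (negative or low) from ST-HSC (positive), and MPP, CMP and GMP were sorted as CD150-. The labels and methods used here do not state the MEP gate.

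Megakaryocytes are the large marrow cells that shed platelets, and they are made from haematopoietic stem cells, in part through MEP. Platelets stick to a damaged vessel wall when the receptor complex GPIb-IX-V (Gp1ba, Gp1bb, Gp5 and Gp9) binds von Willebrand factor (Vwf), and they bind each other through the fibrinogen receptor, the integrin of Itga2b and Itgb3. Their alpha granules store the chemokines platelet factor 4 (Pf4) and pro-platelet basic protein (Ppbp), von Willebrand factor and the adhesion receptor P-selectin (Selp). Sdpr (Cavin2) is a membrane coat protein of caveolae. Stem cells that carry platelet RNAs are a known feature of mouse marrow, and Vwf and Selp are also made by endothelial cells.

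The values were FPKM, fragment counts scaled to transcript length and to the size of the library, a scale on which different genes can be compared per length. No read totals came with them, so no counting interval was computed. Depth relative to the median sample ran from 0.493 to 0.774 in LT-HSC and ST-HSC, from 0.616 to 0.688 in MEP, from 0.563 to 0.859 in STHSC:MA9 and from 0.79 to 1.55 in the other groups. The sort markers broadly followed the labels. Slamf1, which encodes CD150, was at 4.79 to 17.0 FPKM in LT-HSC and ST-HSC and at no more than 0.3 FPKM in MPP and GMP, but at 2.19 to 3.99 FPKM in CMP. Fcgr3 was at 129.6 to 189.5 FPKM in GMP against no more than 9.98 FPKM in CMP. In LT-HSC replicates 4 and 5 and ST-HSC replicates 4 and 5, the neutrophil gene S100a8 was at 20265, 10324, 12625 and 2201 FPKM and the haemoglobin gene Hbb-b1 at 44047, 24474, 24164 and 3781 FPKM. The other 6 stem cell libraries held S100a8 at 6.49 to 352.5 FPKM, and 5 of them held Hbb-b1 at 48.8 to 788.3 FPKM. The sixth, ST-HSC replicate 2, held Hbb-b1 at 3770 FPKM, close to ST-HSC replicate 5. For the 9 genes, comparisons of 2 groups that rest on stem cells are therefore also given without replicates 4 and 5 of both groups. Results for other genes are not given in this way. In MEP replicates 1, 2, 3 and 4, the B cell gene Cd79a was at 3.73, 3.76, 33.8 and 46.35 FPKM. S100a8 was at 996.6 FPKM in MEP replicate 4. The part of other cells in the MEP sort was not tested. Of the 6 endothelial markers, the defining genes Cdh5 and Cldn5 were at no more than 0.5 FPKM in every sample, and the summed list, mostly Egfl7, ran from 75.9 to 93.5 FPKM in MPP and from 0.4 to 3.68 FPKM in the leukaemias.

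In the NCBIM37 assembly (mm9) with GENCODE M1 annotation, Pf4 (ENSMUSG00000029373) lies on chromosome 5 from 91201461 to 91202407 and Ppbp (ENSMUSG00000029372) from 91197544 to 91199086, both on the plus strand with 2374 bases between them. Vwf (ENSMUSG00000001930) spans chromosome 6 from 125496792 to 125636697 and Gp9 (ENSMUSG00000030054) the same chromosome from 87728130 to 87729756. Itga2b (ENSMUSG00000034664) and Gp1ba (ENSMUSG00000050675) lie on chromosome 11, at 102314611 to 102331436 and 70452624 to 70456328. Gp5 (ENSMUSG00000047953) lies on chromosome 16 from 30307772 to 30310865, and Selp (ENSMUSG00000026580) and Sdpr (ENSMUSG00000045954) on chromosome 1 from 166045395 to 166080157 and from 51345970 to 51359803. Exons of Selp overlap the annotated antisense genes Gm16587 and Gm16548, and no strand setting is given in the sources used here, so reads of these genes cannot be told apart. No 31-base window of the protein-coding transcripts of the 9 genes was found, on the same strand, in a protein-coding transcript of another gene. Non-coding and antisense genes were not compared.

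Megakaryocyte genes are known targets of GATA and ETS factors, so the letters of their sites were looked for in the bases upstream of the RefSeq transcription start. The windows came from a RefSeq table (GRCm38.p6) that held 8 of the 9 genes, not Vwf, and each matched NCBIM37 exactly once. For GATA the letters were AGATAA or AGATAG or the variants TGATAA or TGATAG, for ETS they were AGGAAG or CGGAAG, both strands were read, and no GATA match overlapped an ETS match in the windows shown. The 150 bases before the start are shown for the 3 subunits of GPIb-IX-V among the 9 genes and for Pf4, the gene with the highest FPKM, with the matching letters in capitals.
Gp1ba, chr11:70452474-70452623, plus strand: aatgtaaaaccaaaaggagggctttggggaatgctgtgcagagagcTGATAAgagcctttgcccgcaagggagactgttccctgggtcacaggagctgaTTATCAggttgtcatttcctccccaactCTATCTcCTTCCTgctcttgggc
Gp5, chr16:30310868-30311017, minus strand: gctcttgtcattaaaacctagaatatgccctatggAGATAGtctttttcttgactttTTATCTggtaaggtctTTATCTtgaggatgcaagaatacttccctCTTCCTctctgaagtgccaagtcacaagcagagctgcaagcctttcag
Gp9, chr6:87727914-87728063, plus strand: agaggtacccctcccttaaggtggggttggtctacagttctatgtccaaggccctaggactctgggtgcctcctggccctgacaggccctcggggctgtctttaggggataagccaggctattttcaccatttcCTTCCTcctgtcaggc
Pf4, chr5:91201311-91201460, plus strand: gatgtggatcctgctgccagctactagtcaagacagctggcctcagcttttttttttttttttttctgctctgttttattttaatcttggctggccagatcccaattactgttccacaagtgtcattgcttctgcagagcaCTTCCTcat
Gp1ba and Gp5 each held 3 GATA hexamers and 1 ETS hexamer in these windows, while Gp9 and Pf4 each held 1 ETS hexamer and no GATA hexamer. Over the 8 genes, 2 windows held a GATA hexamer and 6 an ETS hexamer. These 6 include the window of Itga2b, with 2 ETS hexamers, at chr11:102331198-102331347 on the minus strand. That window lies before the RefSeq start but inside the gene as annotated in GENCODE M1. Among 27025 promoters of this length, 16.3% held a GATA hexamer, 28.0% an ETS hexamer and 3.89% both. These matches describe letters in a window and are not evidence of binding.

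In normal marrow, the 9 genes were highest in stem cells, intermediate in CMP and low in GMP, with low levels of most of them in MPP as well. The highest library of all 49 was ST-HSC replicate 1 for 8 genes and LT-HSC replicate 2 for Vwf. In bulk samples, fewer cells of a type and less RNA per cell cannot be told apart.

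**Figure D1:**
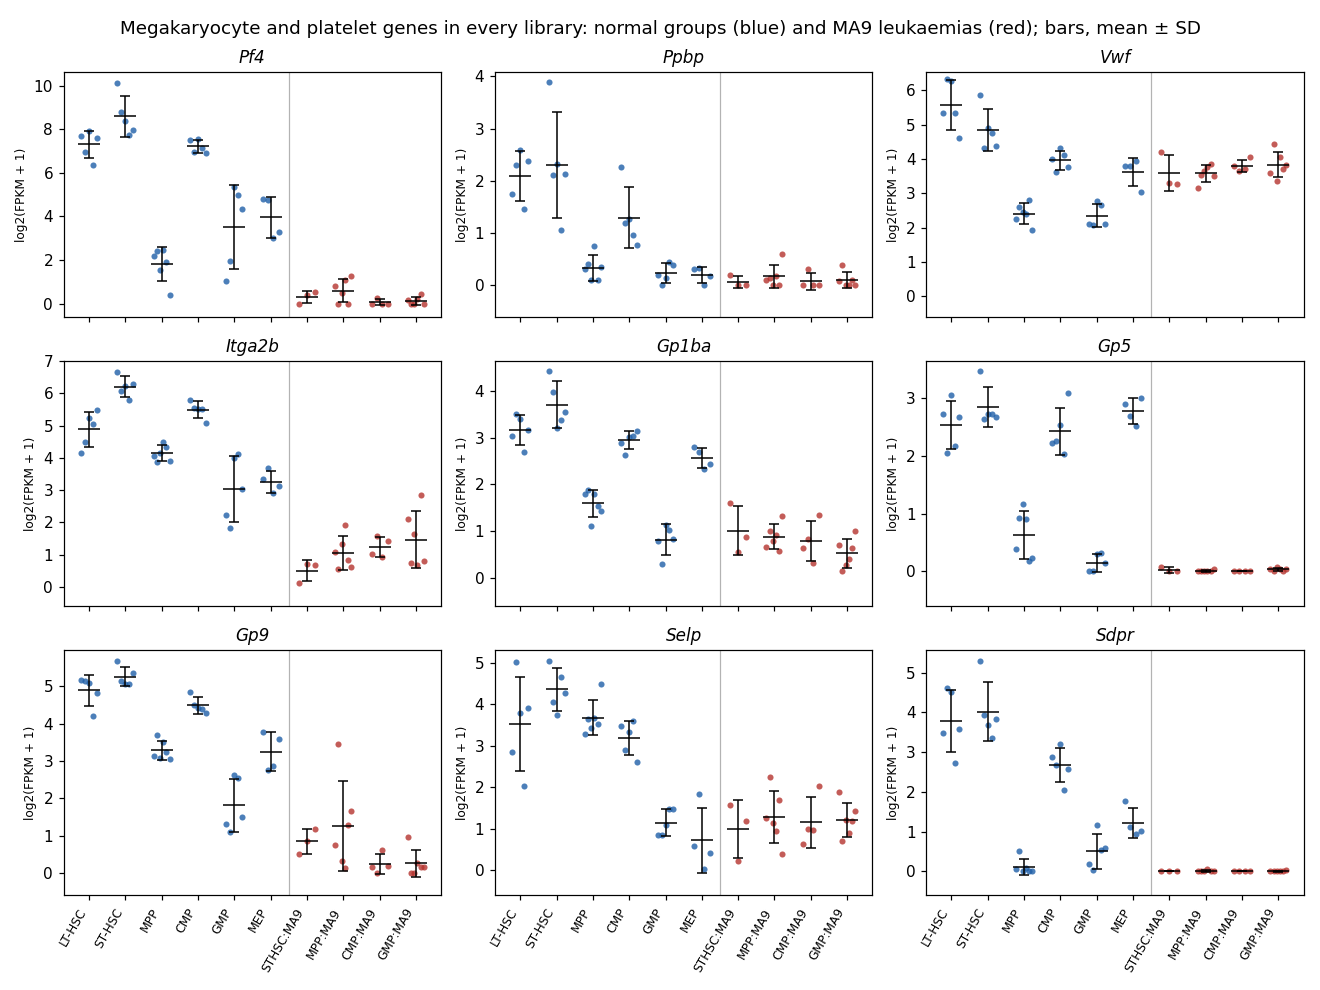
Each panel plots 1 gene as log2(FPKM + 1) in every library (points) over the 10 groups, with the mean ± SD of the group as a black bar; normal groups are blue and MA9 leukaemias red. Pf4 runs from 1110.4 FPKM in a ST-HSC library to no more than 1.38 FPKM in any leukaemia, and Vwf is the gene whose leukaemias, at 7.94 to 20.6 FPKM, lie above normal MPP and GMP.

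Among the granule proteins, Pf4 had the widest range. Its 5 ST-HSC libraries were at 1110.4, 436.8, 329.6, 209.5 and 248.6 FPKM, its LT-HSC libraries at 206.6, 124.3, 241.1, 82.4 and 189.9 FPKM, and its CMP libraries at 180.0, 122.2, 189.1, 140.9 and 120.3 FPKM. LT-HSC and ST-HSC overlapped, as did LT-HSC and CMP, while every ST-HSC library was above every CMP library. MPP lay far below, with a lowest value of 0.33, a median of 3.1 and a highest value of 4.53 FPKM, and MEP libraries were at 26.6, 26.1, 7.11 and 8.62 FPKM. GMP libraries were spread over 1.05, 2.83, 39.4, 30.5 and 19.6 FPKM, so that GMP overlapped both MPP and MEP. Ppbp, a chemokine gene next to Pf4, had the same 3 highest groups, in the same order, at much lower levels, with a mean of 5.12 ± 4.97 FPKM (SD, n = 5) in ST-HSC, 3.45 ± 1.36 FPKM (SD, n = 5) in LT-HSC, 1.64 ± 1.26 FPKM (SD, n = 5) in CMP and no more than 0.69 FPKM in any MPP, GMP or MEP library.

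Vwf was the only one of the 9 genes with its highest mean in LT-HSC. Its libraries were at 39.1, 78.6, 76.3, 39.3 and 23.4 FPKM in LT-HSC and at 56.6, 19.03, 29.0, 25.7 and 19.6 FPKM in ST-HSC, and the 2 groups overlapped. CMP, at 11.2 to 19.03 FPKM, and MEP, at 7.14 to 14.2 FPKM, overlapped each other, and so did MPP, at 2.78 to 6.02 FPKM, and GMP, at 3.25 to 5.83 FPKM.

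Among the receptors, Itga2b, the platelet integrin chain that is also used as an early haematopoietic marker (CD41), was at 101.4, 65.8, 74.1, 54.2 and 77.2 FPKM in ST-HSC, above each of the LT-HSC libraries at 16.8, 21.5, 36.8, 32.3 and 43.6 FPKM. CMP, at 32.6 to 54.8 FPKM, fell between these groups and overlapped both. MPP kept 13.6 to 21.6 FPKM of Itga2b, above MEP at 6.45 to 11.9 FPKM. Its partner chain Itgb3 was at 13.99 to 27.8 FPKM in ST-HSC and 2.14 to 3.91 FPKM in MPP.

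The subunits of GPIb-IX-V did not share 1 level. In ST-HSC, Gp9 was at 38.0 ± 7.56 FPKM (SD, n = 5), Gp1ba, the chain that binds Vwf, at 12.7 ± 4.99 FPKM and Gp5 at 6.36 ± 2.06 FPKM, and the same order held for the means of LT-HSC, MPP, CMP and GMP. In MEP, Gp5 at 5.91 ± 1.03 FPKM (SD, n = 4) lay above Gp1ba at 4.96 ± 0.891 FPKM. MEP held Gp5 at 4.69 to 6.99 FPKM, within the range of LT-HSC and CMP, although MEP was low in Pf4, Itga2b and Selp. GMP held Gp5 at no more than 0.25 FPKM and listed it at 0 in 2 of 5 libraries. Gp1bb, the remaining subunit, was at 1.71 to 4.14 FPKM in ST-HSC and at no more than 1.65 FPKM in the other normal groups, and its annotation overlaps a neighbouring gene, so its level is uncertain.

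Selp, the receptor that platelets show when activated, was the gene of the 9 whose MPP and ST-HSC libraries overlapped. MPP libraries were at 8.8 FPKM at the lowest, a median of 11.03 and 21.5 FPKM at the highest, against 12.4 to 32.0 FPKM in ST-HSC and 5.08 to 11 FPKM in CMP. LT-HSC libraries were spread from 3.11 to 31.5 FPKM. MEP, at 0.49, 2.6, 0.03 and 0.34 FPKM, held the lowest mean of the normal groups. Sdpr also parted MPP from both neighbouring groups, at 38.2, 14.3, 11.8, 9.27 and 13.2 FPKM in ST-HSC, at no more than 0.43 FPKM in MPP, where 3 of 6 libraries listed it at 0, and at 6.29, 5.36, 8.3, 3.11 and 4.92 FPKM in CMP. The MPP libraries were at 1.16 to 1.40 of the median depth.

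Changes between groups were tested with limma on log2(FPKM + 1) over the genes whose mean reached 1 FPKM in the samples of a fit. A change on this scale understates that of genes with low values. A gene was called at a Benjamini-Hochberg adjusted p below 0.05 with an absolute log2 change above 1. All 9 genes passed the filter in the fit of the 30 normal samples, and changes are given with their standard error (SE). A gene whose mean is raised above this filter mostly by its high groups had to differ between groups, as for Ppbp, Gp5 and Sdpr, which were at no more than 0.36, 0.25 and 1.26 FPKM in GMP. The counts in these comparisons therefore describe the genes and are not evidence beyond their values. The comparisons share groups, so they are not independent of each other.

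From ST-HSC to MPP, 8 of the 9 genes were called, all higher in ST-HSC, against 1.31% of all genes called in that direction, and the median log2 change of the 9 genes was 2.11 against -0.10 over all 12367 genes tested. Pf4 differed by 6.78 (SE 0.59, adjusted p = 4.51e-09) and Sdpr by 3.91 (SE 0.31, adjusted p = 1.02e-09). The other called genes, Vwf, Gp5, Gp1ba, Itga2b, Gp9 and Ppbp, differed by 1.97 to 2.43. In these 8 genes no ST-HSC library overlapped the MPP libraries, which held for 12.1% of all genes tested. Selp was at a log2 difference of 0.68 (SE 0.37, adjusted p = 0.20). Without ST-HSC replicates 4 and 5 the same count, 8, was called.

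From MPP to CMP, 7 of the 9 genes were called, all lower in MPP, against 1.49% of all genes, with a median of -1.35 against -0.03 over all genes. Pf4 was lower in MPP by a log2 change of -5.40 (SE 0.59, adjusted p = 2.60e-07) and Sdpr by -2.56 (SE 0.31, adjusted p = 1.58e-06). Gp5 (-1.79), Vwf (-1.56), Itga2b and Gp1ba (-1.35 each) and Gp9 (-1.21) were also called. Ppbp, at -0.96 (SE 0.32, adjusted p = 0.042), was under the fold threshold. It was called at -2.16 (adjusted p = 0.0087) with a pseudocount of 0.1, and at -1.04 to -1.08 without MPP replicate 4, CMP replicate 4 or CMP replicate 5. Selp was at 0.49 (SE 0.37, adjusted p = 0.41).

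From CMP to GMP, all 9 genes were called, each higher in CMP, against 7.94% of all genes, with a median of 2.17 against 0.20. The groups overlapped in none of the 9, and in 34.7% of all genes tested they did not overlap either. The largest differences were those of Pf4 (3.69, SE 0.61, adjusted p = 2.50e-05) and Gp9 (2.67, SE 0.25, adjusted p = 4.51e-09), and the smallest was that of Ppbp (1.05, SE 0.33, adjusted p = 0.014), whose call was lost without CMP replicate 1 (0.81, adjusted p = 0.061) or without GMP replicate 2 (0.99), and after median-ratio scaling (0.95).

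MEP lay below CMP in 6 of the 9 genes, against 9.49% of all genes called higher in CMP, with a median of 1.24 against 0.14. Pf4 was higher in CMP by 3.26 (SE 0.65, adjusted p = 0.00030), Selp by 2.46 (SE 0.41), Itga2b by 2.23 (SE 0.33), Sdpr by 1.46, Gp9 by 1.24 and Ppbp by 1.09. The call of Ppbp was lost without CMP replicate 1 (0.84), without MEP replicate 3 (1.02, adjusted p = 0.056) and after median-ratio scaling (0.99). Vwf (0.33), Gp1ba (0.38) and Gp5 (-0.35) were not called, with adjusted p of 0.43, 0.19 and 0.28. Erythroid markers had a summed level of 3363 to 5293 FPKM over 8 genes in MEP and 740.1 to 3032 FPKM in CMP, and their part in these differences was not tested.

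Between GMP and MEP, 4 of the 9 genes were called, all lower in GMP, against 9.33% of all genes, with a median of -0.71 against -0.06. They were 3 subunits of GPIb-IX-V and its ligand, namely Gp5 (-2.62, SE 0.24, adjusted p = 3.85e-10), Gp1ba (-1.74, SE 0.22), Gp9 (-1.43, SE 0.27) and Vwf (-1.29, SE 0.30). Pf4 (-0.43), Itga2b (-0.22), Ppbp (0.03), Selp (0.43) and Sdpr (-0.71) were not called, with adjusted p between 0.093 and 0.96. With a pseudocount of 0.1, Sdpr was called at -1.71 (adjusted p = 0.014).

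Stem cells were compared with MEP directly, since both can give rise to megakaryocytes. LT-HSC were higher than MEP in 7 of the 9 genes, against 10.4% of all genes, with a median of 1.89 against -0.07, and ST-HSC in 8, against 13.5% of all genes, with a median of 2.10 against 0.06. Pf4 was higher by 3.35 (SE 0.65) in LT-HSC and by 4.63 (SE 0.65) in ST-HSC, and Selp by 2.80 (SE 0.41) and 3.63 (SE 0.41). Gp5 was at -0.24 (adjusted p = 0.41) in LT-HSC and at 0.07 (adjusted p = 0.83) in ST-HSC. Gp1ba was at 0.59 in LT-HSC, under the fold threshold (adjusted p = 0.024), and at 1.14 (SE 0.22, adjusted p = 9.27e-05) in ST-HSC. Without ST-HSC replicate 1, the ST-HSC count was 6, because Gp1ba and Vwf dropped to 0.96 and 0.95. Without replicates 4 and 5 of both stem cell groups, the counts were again 7 and 8.

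LT-HSC and ST-HSC differed in 1 of the 9 genes, Itga2b, which was lower in LT-HSC by a log2 change of -1.33 (SE 0.32, adjusted p = 0.0072), against 1.5% of all genes called lower, and the median was -0.37 against -0.12. When only these 2 groups were fitted, no gene of the 9 was called (Itga2b adjusted p = 0.058), and 2 had an unadjusted p below 0.05. Vwf was at 0.73 (SE 0.28, adjusted p = 0.11) and Pf4 at -1.28 (SE 0.61, adjusted p = 0.21). Without LT-HSC replicate 2, Selp was also called (-1.21, adjusted p = 0.029). Without replicates 4 and 5 of both groups Itga2b was at -1.70 (adjusted p = 0.0083).

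**Figure D2:**
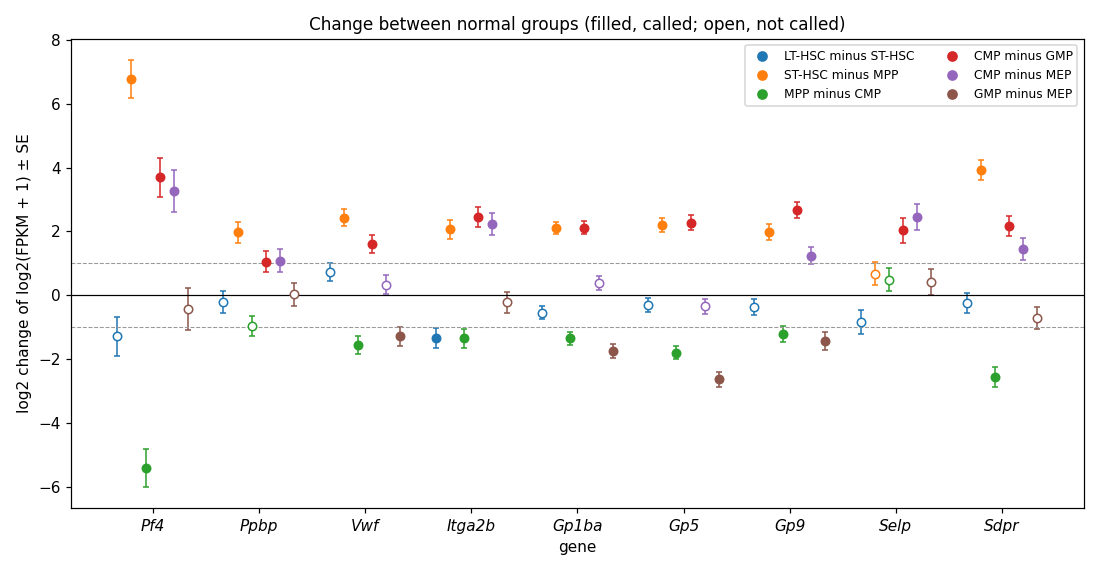
The log2 change of log2(FPKM + 1) ± SE is plotted for each of the 9 genes (x axis) in 6 comparisons of normal groups (colours); filled points passed the test, open points did not, and dashed lines mark log2 changes of 1 and -1. Pf4 shows the largest changes, 6.78 from ST-HSC against MPP and -5.40 from MPP against CMP, whereas Selp is open in both.

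**Figure D3:**
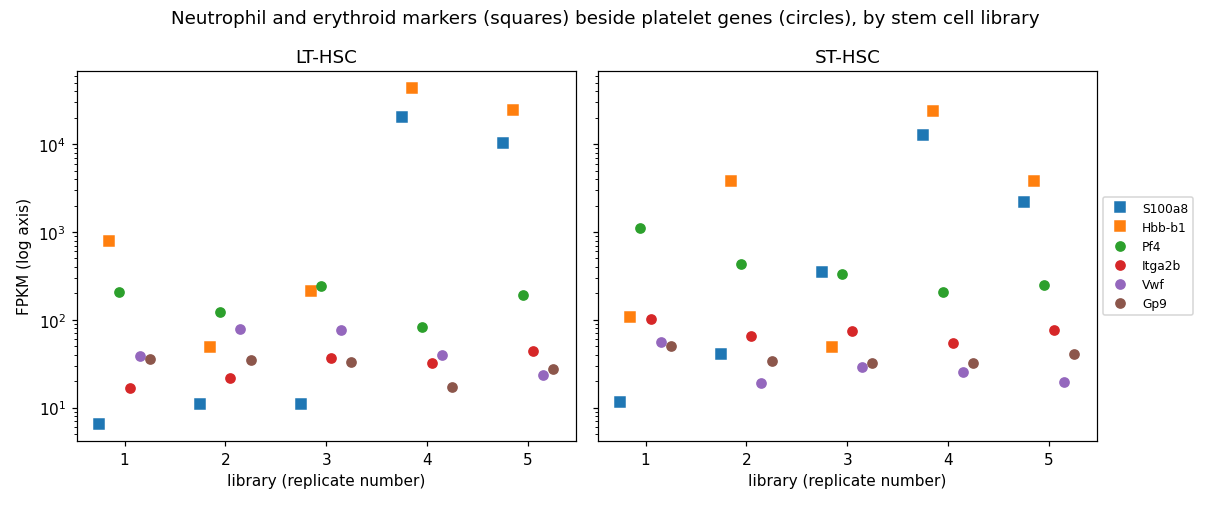
FPKM on a log axis are plotted for each LT-HSC and ST-HSC library (x axis, replicate number), with the neutrophil gene S100a8 and the haemoglobin gene Hbb-b1 as squares and Pf4, Itga2b, Vwf and Gp9 as circles. S100a8 is above 2000 FPKM in replicates 4 and 5 of both groups, and Pf4 is at 82.4 and 189.9 FPKM in those LT-HSC libraries and at 209.5 and 248.6 FPKM in those ST-HSC libraries.

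Another scaling moved the background in several of these comparisons. Median-ratio scaling of samples changed the calls over all genes from 95 higher and 185 lower to 137 and 113 for LT-HSC minus ST-HSC, from 162 and 263 to 204 and 173 for ST-HSC minus MPP, from 982 and 409 to 655 and 587 for CMP minus GMP, from 1174 and 290 to 936 and 408 for CMP minus MEP, from 1284 and 1046 to 1497 and 722 for LT-HSC minus MEP, and from 1641 and 1867 to 1923 and 1447 for CMP:MA9 minus CMP. It shifted the median of all genes by 0.12, 0.10, -0.19, -0.14, 0.11 and 0.15 in these comparisons. The medians of the tested genes among the 9 after scaling were -0.23, 2.19, 2.01, 1.08, 1.99 and -2.42, and none of these genes turned direction in any of the 12 comparisons.

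GMP libraries differed among themselves in most of these genes. Ppbp, at 0.15 and 0.0 FPKM in replicates 1 and 2 and at 0.11, 0.36 and 0.32 FPKM in replicates 3, 4 and 5, did not part these libraries. Vwf in replicate 5, at 3.31 FPKM, was close to replicates 1 and 2, at 3.29 and 3.25 FPKM. Replicates 3, 4 and 5 held Pf4 at 39.4, 30.5 and 19.6 FPKM and Itga2b at 15.0, 16.3 and 7.14 FPKM, whereas replicates 1 and 2 held Pf4 at 1.05 and 2.83 FPKM and Itga2b at 3.71 and 2.56 FPKM. The erythroid enzyme gene Car1 was at 9.57, 17.1 and 9.47 FPKM in replicates 3, 4 and 5 and at 0.65 and 0.7 FPKM in replicates 1 and 2. Gata1 was at 2.1, 1.55 and 1.45 FPKM against 0.48 and 0.4 FPKM. These 4 genes were each higher in replicates 3, 4 and 5 than in replicates 1 and 2. The erythroid markers Hbb-b1 and Slc4a1 did not show this split. In replicates 1 to 5, Hbb-b1 was at 97.5, 44.2, 116.05, 48.9 and 189.9 FPKM. Slc4a1 was at 0.44, 0.88, 0.76, 0.17 and 0.89 FPKM. The neutrophil gene S100a8 did not follow these 4 genes either, at 4245 and 770.2 FPKM in replicates 1 and 2 and at 1636 to 1904 FPKM in replicates 3 to 5. The part of other cells in the GMP sort was not tested.

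In the leukaemias, 8 of the 9 genes were low or listed at 0 whatever the cell of origin, and Vwf was the exception. Pf4 reached 1.38 FPKM at most in 19 leukaemias and was listed at 0 in 9 of them, Gp5 reached 0.06 FPKM and was listed at 0 in 13, and Sdpr reached 0.04 FPKM and was listed at 0 in 17. Ppbp reached 0.51 FPKM, Gp1ba 2.02 FPKM, Selp 3.74 FPKM and Itga2b 6.19 FPKM. Gp9 reached 2.13 FPKM at most, with the exception of MPP:MA9 replicate 2 at 9.88 FPKM. Vwf was at 7.94 to 20.6 FPKM in all 19 leukaemias, with a median of 12.0 FPKM, and its leukaemia values overlapped those of normal CMP and MEP.

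In the fit of the 40 samples of leukaemias and matched normal cells, 8 of the 9 genes passed the filter and Ppbp, at a mean below 1 FPKM, did not. The same limit of the filter holds for the counts of this fit. From ST-HSC to STHSC:MA9, the 8 tested genes were all lower, against 11.9% of all 12600 genes, with a median of -3.69 (-3.36 without Sdpr) against -0.04 over all genes. Pf4 was lower by a log2 change of -8.27 (SE 0.59, adjusted p = 4.85e-14), Itga2b by -5.71 (SE 0.41, adjusted p = 4.53e-14), Gp9 by -4.41, Selp by -3.36, Gp5 by -2.82 and Gp1ba by -2.69. Sdpr was listed at 0 in all 3 STHSC:MA9 samples, so no fold is given (adjusted p = 5.22e-15). Vwf was lower by -1.25 (SE 0.26, adjusted p = 0.00016), and it was at -0.9955 without ST-HSC replicate 1, under the fold threshold. Without ST-HSC replicates 4 and 5 all 8 tested genes were called.

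From MPP to MPP:MA9, 4 genes were lower, against 13.6% of all genes, and 1, Vwf, was higher, against 13.5%. The median was -0.96 against -0.09. Vwf rose by 1.18 (SE 0.21, adjusted p = 7.63e-06), its mean being 4.39 ± 1.11 FPKM (SD, n = 6) in MPP and 11.1 ± 1.94 FPKM (n = 6) in the leukaemias. No MPP:MA9 sample overlapped the MPP samples in Vwf, and 40.3% of all genes tested did not overlap either. Itga2b fell by 3.09 (SE 0.32, adjusted p = 2.42e-10), Selp by 2.39 (SE 0.28) and Gp9 by 2.02 (SE 0.33). Pf4 fell by 1.21 (SE 0.47, adjusted p = 0.025), a call that was lost without MPP replicate 2 or 4 or MPP:MA9 replicate 2 or 5, with adjusted p of 0.056 to 0.059. Sdpr was already near 0 in MPP and was at -0.10 (adjusted p = 0.70). Gp1ba and Gp5, at -0.71 and -0.63, were under the fold threshold and were called with a pseudocount of 0.1, at -1.19 and -2.45.

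From CMP to CMP:MA9, 7 genes were lower, against 14.8% of all genes, with a median of -2.55 (-3.20 without Gp5 and Sdpr) against -0.16. The changes ran from -7.15 (SE 0.55, adjusted p = 2.14e-13) for Pf4 and -4.26 for Itga2b to -2.02 (SE 0.32) for Selp, and Gp5 and Sdpr were listed at 0 in all 4 CMP:MA9 samples. Vwf was at -0.16 (SE 0.24, adjusted p = 0.57), with 14.8 ± 3.05 FPKM (SD, n = 5) in CMP and a median of 12.4 FPKM in the 4 leukaemias.

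From GMP to GMP:MA9, 3 genes were lower, against 8.87% of all genes, and Vwf was higher, against 13.5%, with a median of -0.40 against 0.00. Vwf rose by 1.49 (SE 0.22, adjusted p = 5.45e-07), its mean being 4.20 ± 1.26 FPKM (SD, n = 5) in GMP and 13.7 ± 4.00 FPKM (n = 6) in the leukaemias. The GMP:MA9 and GMP samples did not overlap in Vwf, and 39.6% of all genes tested did not overlap either. Pf4 fell by 3.39 (SE 0.49, adjusted p = 4.73e-07), Itga2b by 1.58 (SE 0.34) and Gp9 by 1.56 (SE 0.34). Sdpr was at -0.50 (adjusted p = 0.050), and with a pseudocount of 0.1 it was called at -2.04 (adjusted p = 0.00027). Gp1ba at -0.29, Gp5 at -0.12 and Selp at 0.07 were not called. Pf4 in normal GMP was itself split between libraries, as given above.

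**Figure D4:**
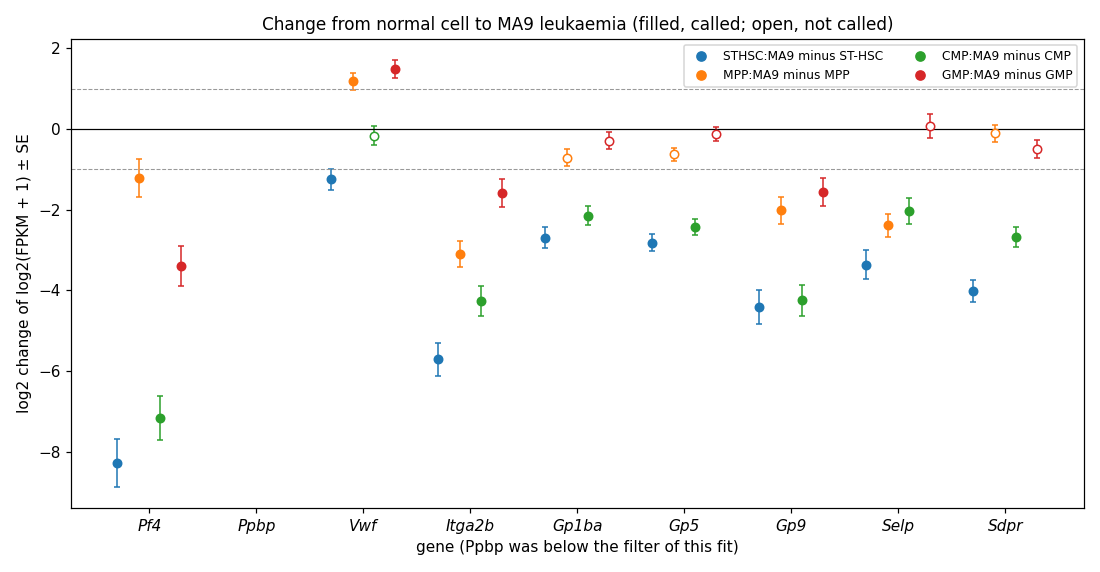
The log2 change of log2(FPKM + 1) ± SE from the normal cell to its leukaemia is plotted for each gene (x axis) and each of the 4 origins (colours); filled points passed the test, open points did not, and dashed lines mark log2 changes of 1 and -1. Vwf is the only gene with points above 1, at 1.18 for MPP:MA9 and 1.49 for GMP:MA9, and the points of Sdpr for STHSC:MA9 and CMP:MA9 and of Gp5 for CMP:MA9 are set against leukaemias listed at 0 and are not folds.

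How far a gene moved between normal cell and leukaemia depended on which of the 4 origins it was in all 8 tested genes (limma F test, no fold threshold), against 38% of all genes, with adjusted p between 1.44e-11 for Sdpr and 1.71e-05 for Gp9. Apart from Vwf, these genes were low in the leukaemias of every origin, and Vwf was not called among the leukaemia origins. This F test therefore largely restates the differences among the normal cells given above and is not separate evidence. The levels in the leukaemias were also compared among origins. In the fit of the 19 leukaemias, Vwf, Itga2b, Gp9 and Selp passed the filter and 0 of these 4 were called by the F test in limma, against 13.3% of all genes, and 0 had an unadjusted p below 0.05. Their adjusted p were 0.62, 0.35, 0.22 and 0.93. Gp9 passed this filter only through MPP:MA9 replicate 2, at 9.88 FPKM, and its median over the 19 leukaemias was 0.24 FPKM. STHSC:MA9 held Vwf at 17.4, 8.8 and 8.68 FPKM and CMP:MA9 at 12.8, 11.6, 12.0 and 15.6 FPKM. The lowest, median and highest values were 7.94, 11.2 and 13.5 FPKM in MPP:MA9 and 9.34, 12.7 and 20.6 FPKM in GMP:MA9, so that all 4 origins overlapped. The endothelial genes Cdh5 and Cldn5 were at no more than 0.37 FPKM in every leukaemia. Macrophage markers moved with the change to leukaemia, their sum over 6 genes being 306.5 to 813.9 FPKM in the leukaemias and 2.64 to 149.7 FPKM in normal samples. The summed neutrophil markers, 7 genes, were at 993.3 to 51412 FPKM in MPP:MA9 against 13.6 to 862.3 FPKM in MPP, and at 1233 to 14384 FPKM in GMP:MA9 against 1705 to 11352 FPKM in GMP. The part of either list in the level of Vwf was not tested.

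Other genes of the platelet were counted from a list of 36, in 4 role groups of adhesion receptors (10), agonist and cytokine receptors (6), granule cargo and formation (10) and cytoskeleton, signalling and enzymes (10), of which 28 passed the filter of the normal fit and 27 that of the leukaemia fit. Against MEP, ST-HSC were higher in 24 of 28, against 13.5% of all genes, and lower in none (median 2.31 against 0.06 over all genes). The calls covered all 6 tested adhesion receptors, 4 of 5 agonist and cytokine receptors, 8 of 10 granule genes and 6 of 7 signalling genes. Ptgs1, which makes the precursor of thromboxane, was higher by 4.05 (SE 0.26, adjusted p = 2.48e-12), and Plek, a signalling protein of platelets and leukocytes, by 3.90 (SE 0.28). LT-HSC were higher than MEP in 20 of 28, against 10.4% of all genes (median 1.67 against -0.07), led by Mmrn1, an alpha granule protein (4.15), and Ptgs1 (3.63).

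Among the neighbouring steps, ST-HSC were higher than MPP in 9 of 28 and lower in 1 (median 0.60), against 1.31% and 2.13% of all genes, with Treml1, a receptor of platelet granules, at 3.07 (SE 0.23) and F2rl2, a thrombin receptor, at 2.75 (SE 0.20), and the thromboxane receptor Tbxa2r at -1.15 (SE 0.20). MPP were higher than CMP in 7, led by Tbxa2r (1.78) and F11r (1.75), against 2.83% of all genes. They were lower in 4, against 1.49% of all genes, led by Treml1 (-2.21) and the ADP receptor P2ry1 (-1.74). CMP were higher than GMP in 7, against 7.94% of all genes, led by Pear1 (2.68) and Treml1 (2.17). They were lower in 3, against 3.31% of all genes, led by Ptgs1 (-1.62) and the clotting factor gene F5 (-1.53). CMP were higher than MEP in 15, against 9.49% of all genes, and lower in none, led by F13a1 (4.53) and Plek (3.03). GMP were higher than MEP in 11, against 11.2% of all genes, led by F13a1 (6.35) and Ptgs1 (3.71). They were lower in 1, against 9.33% of all genes, namely P2ry1 (-1.08, and -0.96 without GMP replicate 2, under the fold threshold). The medians of the list were 0.31 for MPP minus CMP, 0.68 for CMP minus GMP, 1.19 for CMP minus MEP and 0.21 for GMP minus MEP. F13a1, Plek and Ptgs1 are also expressed by myeloid cells. LT-HSC were lower than ST-HSC in 4, against 1.5% of all genes, led by Slc35d3 (-1.75, SE 0.25) and Plek (-1.14, SE 0.26). When only these groups were fitted, the adjusted p of Slc35d3 and Plek were 0.063 and 0.13. Plek also dropped under the fold threshold without LT-HSC replicate 1 (-0.97), LT-HSC replicate 2 (-0.99) or ST-HSC replicate 1 (-0.96).

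In the leukaemias the list did not move one way. Against ST-HSC, STHSC:MA9 fell in 13 of 27 genes, against 11.9% of all genes, and rose in 4, against 12.3%. MPP:MA9 was lower than MPP in 9, against 13.6% of all genes, and higher in 5, against 13.5%. CMP:MA9 was lower than CMP in 7, against 14.8% of all genes, and higher in 4, against 13%. GMP:MA9 was lower than GMP in 1, against 8.87% of all genes, and higher in 5, against 13.5%. The medians of the list were -0.95, 0.03, -0.32 and 0.07 in this order. The falls were led by Mmrn1 (-4.46) and Pear1 (-3.66) in STHSC:MA9, by Pear1 (-4.27) and Tbxa2r in MPP:MA9, and by Pear1 (-3.32) and F2rl2 (-2.37) in CMP:MA9. Tbxa2r was listed at 0 in all 6 MPP:MA9 samples, so no fold is given (adjusted p = 6.53e-22). Pear1, an adhesion receptor of platelets, was at 17.1 to 26.5 FPKM in MPP and at no more than 0.77 FPKM in any leukaemia. F13a1, which is also made by monocytes and macrophages, and F5, both genes of clotting factors, showed the largest rises in those 3, from 2.20 to 4.10 for F13a1 and from 2.81 to 3.81 for F5. In GMP:MA9 the rises were led by Plek (2.37, SE 0.20) and F5 (1.80, SE 0.49), and Srgn, a proteoglycan of granules, was the gene that fell (-1.32, SE 0.25).

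Of 8 transcription factors of megakaryocytes and their precursors, 4 were lower in MPP than in CMP, against 1.49% of all genes. They were Gata1 (-2.77, SE 0.33, adjusted p = 1.35e-06), Zfpm1 (-1.31), a partner of GATA factors, Gfi1b (-1.22) and Gata2 (-1.03), and the median of the 8 was -0.83. These 4 and Tal1 were higher in CMP than in GMP, against 7.94% of all genes, by 2.38 to 4.48, with a median of 2.56 over the 8. MEP held the highest levels of Gata1 (49.5 to 55.3 FPKM) and Gfi1b (127.3 to 161.7 FPKM). Fli1, the ETS factor of the megakaryocyte branch, was at 14.8 to 18.5 FPKM in MEP. The other normal groups held Fli1 at 38.3 to 108.2 FPKM. Fli1 was higher in CMP than in MEP by 1.70 (SE 0.17, adjusted p = 9.46e-09). Runx1 was also higher in CMP than in MEP, by 1.57 (SE 0.12, adjusted p = 1.75e-10). Of the 9 genes, 6 were called lower in MEP than in CMP, as given above. Vwf (0.33), Gp1ba (0.38) and Gp5 (-0.35) were not called between CMP and MEP. The part of any transcription factor in these levels was not tested. In the leukaemias Gata1 was at 0.41 FPKM or below and Tal1 at 0.53 FPKM or below, while Fli1 was at 42.4 to 88.6 FPKM and Nfe2 at 31.6 to 105.4 FPKM. None of the 4 comparisons with normal cells called Fli1, whose log2 changes ran from -0.21 to 0.13, while the F test among the 4 leukaemia origins did (limma adjusted p = 0.00054).

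**Figure D5:**
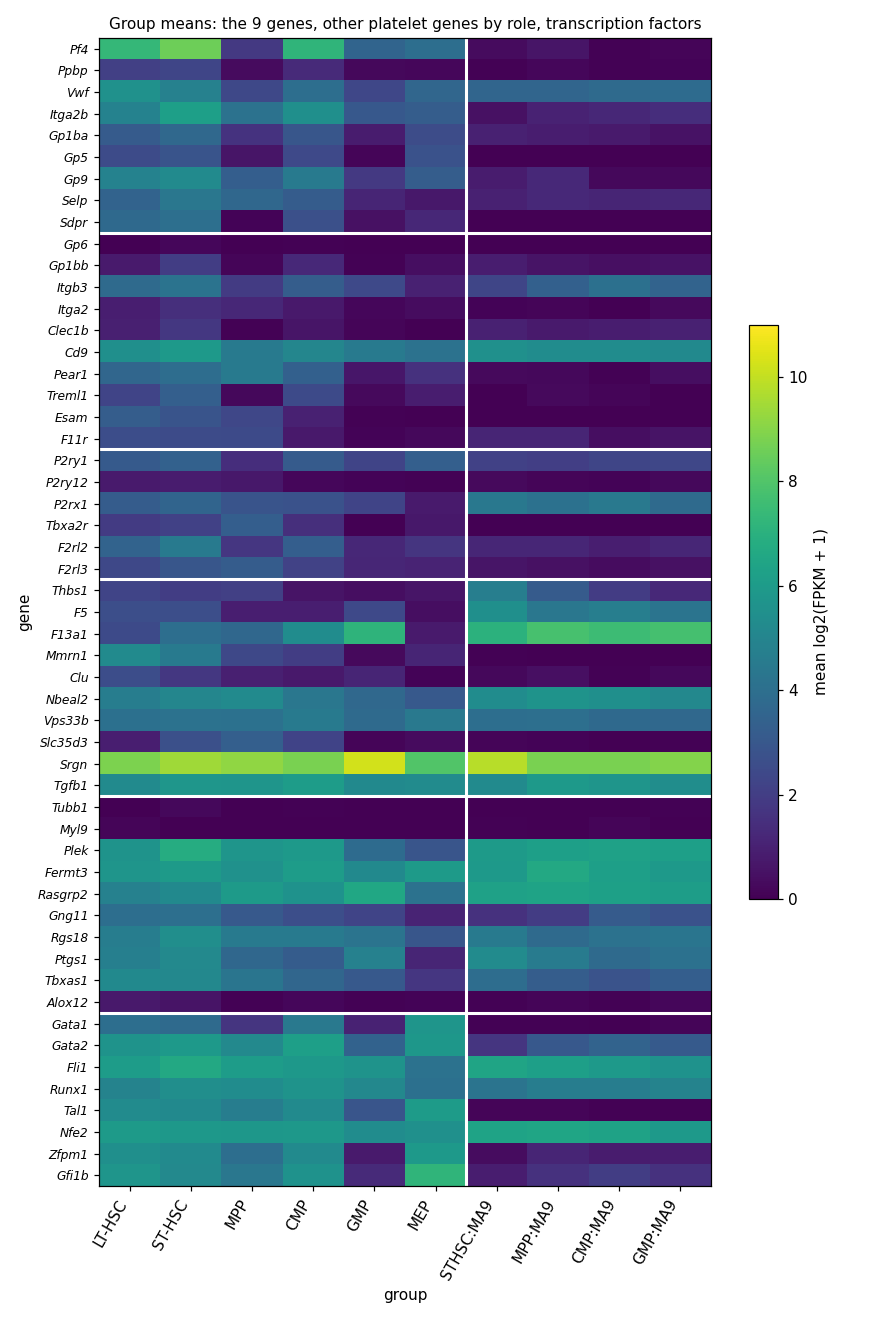
Mean log2(FPKM + 1) is shown by colour for the 9 genes, the 36 other platelet genes in their 4 role groups and the 8 transcription factors (rows, parted by white lines) in 6 normal and 4 leukaemia groups (columns). Dark purple is 0 and yellow is high; Tubb1, Gp6 and Myl9 are dark in every column, while Gata1 and Tal1 are dark in the leukaemias, at no more than 0.53 FPKM, and Fli1 and Nfe2 are green there.

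Over the 10 group means, each gene was also set against the mean of the other 8 as a description, without a test, since the groups share the same libraries and most of the range lies between normal cells and leukaemias. Pearson's r was 0.97 for Sdpr, 0.96 for Gp1ba, Pf4 and Gp9, 0.94 for Ppbp, 0.92 for Itga2b, 0.89 for Gp5, 0.78 for Selp and 0.58 for Vwf. Of 12147 other genes whose mean reached 1 FPKM, the 8 whose group means were most like the mean of the 9 genes were Rab27b (r = 0.989), Ehd3 (0.988), Pde5a (0.982), Tek (0.98), F2rl2 (0.974), Rbpms2 (0.973), Med12l (0.972) and Treml1 (0.967). Rab27b, which encodes a small GTPase of granule release, was at a mean of 7.76 FPKM in ST-HSC, 4.58 in LT-HSC, 2.46 in CMP and 0.62 in MPP, and at no more than 0.03 FPKM in the mean of any leukaemia group. Tek, the receptor of angiopoietin, was at 7.37, 6.71, 3.71 and 2.22 FPKM in the same normal groups. F2rl2 and Treml1 were also in the list of platelet genes.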

How the data were processed

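The authors deposited 1 table of FPKM, made with RSEM after cDNA amplification and rounded to 2 decimals, on mm9 per the submitters' processing notes, and the aligner, versions and annotation are not given in the sources used here. The authors' own tests ran edgeR on counts, not analysed here. The table has 68 sample columns, of which 49 carry the name of a labelled sample and 19 were left out. The 9 genes, the gene lists and the tests were chosen with earlier results of these data known. 1 item of the platelet list is not reported here, and the counts leave it out. All 9 genes are named, with the 2 largest called rises and falls of the platelet list per comparison and the 8 genes of most similar group means. Groups and replicate numbers came from the labels. The normal groups, the leukaemias with matched normal cells, and the leukaemias were each fitted in limma 3.58.1 (R 4.3.3, eBayes with trend, two-sided) on log2(FPKM + 1) of genes whose mean reached 1 FPKM, with Benjamini-Hochberg adjustment, and the code was tested on simulated data. Depth was estimated from the ratios of low values, and 88.2% of sample pairs were within 0.06 (log2) of the solution. The study states that every sample came from a separate mouse. Correlations of same-numbered deviations were 0.15 to 0.68 for LT-HSC with ST-HSC, the only comparison with all of them above 0.1. The highest, 0.68, was in replicate 4, where both libraries held high S100a8 and Hbb-b1. For LT-HSC with MEP they were 0.095 to 0.35, so whether replicate numbers pair samples is not settled. Alternatives were a pseudocount of 0.1, no filter, median-ratio scaling, a replicate block, only the 2 groups compared, leaving out each replicate and, chosen after seeing the data, leaving out the 4 stem cell libraries with S100a8 above 2000 FPKM. Other steps used Python 3.11.15, numpy 2.4.6, pandas 2.3.3 and matplotlib 3.10.9.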

Additional observations from a re-analysis of the deposited data

Results flagged for a closer look

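In 3 of 55 sets of a gene and a group, 1 library stood apart from the others by Dixon's gap on log2(FPKM + 1), and chance gives about 1 in 20. Vwf was at 7.14 FPKM in MEP replicate 4, below 12.7 to 14.2 FPKM in the other MEP libraries. Gp5 was at 10.04 FPKM in ST-HSC replicate 1, above 5.24 to 5.6 FPKM in the other ST-HSC libraries. Selp was at 21.5 FPKM in MPP replicate 6, above 8.8 to 11.7 FPKM in the other MPP libraries.

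The size of the move between normal cell and leukaemia depended on the origin (4 of them) in 8 genes (limma F test over 40 samples), with adjusted p of 2.05e-09 for Pf4, 9.97e-08 for Vwf, 8.71e-07 for Itga2b, 3.75e-07 for Gp1ba, 1.62e-10 for Gp5, 1.71e-05 for Gp9, 1.04e-06 for Selp and 1.44e-11 for Sdpr. For Vwf the direction itself differed, since it fell between ST-HSC and STHSC:MA9 (-1.25) and rose between MPP and MPP:MA9 (1.18) and between GMP and GMP:MA9 (1.49). For the other 7 genes the 4 changes differed in size or included values near 0. These 7 genes were low in the leukaemias of every origin, and the Vwf levels of all 4 leukaemia origins overlapped. The F test thus largely restates the differences among the normal cells.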

How the results depend on the processing

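The number of the 9 genes called stayed within 1.5 times its reported value in 249 of 251 recomputed counts. The exceptions were both in LT-HSC minus ST-HSC, where 1 gene was called as reported, 0 in a fit of only the 2 groups compared, and 1 to 2 over the fits that left out each replicate, 2 being without LT-HSC replicate 2. With the replicate block, 1 gene was called in that comparison (Itga2b, -1.33, adjusted p = 0.012), and the block changed no other count or call of the 9 genes. Outside LT-HSC with ST-HSC, correlations of same-numbered deviations ran from -0.20 to 0.35, and no pairing was clear. A gene's direction turned only when a replicate was left out, and only in changes that were not called. Over those fits Ppbp ran from -0.52 to 0.18 and Sdpr from -0.45 to 0.079 in LT-HSC minus ST-HSC, Pf4 from -0.88 to 0.19, Ppbp from -0.038 to 0.091 and Itga2b from -0.49 to 0.081 in GMP minus MEP, Gp5 from -0.089 to 0.14 in ST-HSC minus MEP, and Selp from -0.064 to 0.17 in GMP:MA9 minus GMP. Levels below about 1 FPKM rest on few reads in libraries of unknown total, and STHSC:MA9 rests on 3 samples.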

Other observations

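Summed over the 9 genes, FPKM took 0.0396% to 0.182% of the total in ST-HSC, 0.02% to 0.0532% in LT-HSC, 0.0243% to 0.0387% in CMP and no more than 0.0088% in any MPP, GMP or MEP library. Pf4 made up 56.4% to 77.5% of this sum in ST-HSC, 54.8% to 62.2% in CMP and 37.5% to 62.7% in LT-HSC, but 0.68% to 8.51% in MPP. In the leukaemias the sum was 11.2 to 25.9 FPKM, with Pf4 at no more than 8.2% of it. Itgb3, the partner chain of Itga2b, was at 2.58 to 23.9 FPKM in the leukaemias, where Itga2b was at 0.09 to 6.19 FPKM.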
